A study of Mus musculus with 39 samples.

Results

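The lineage factors described here are 9 mouse genes: *Tead4* and *Yap1*, *Cdx2*, *Eomes*, *Gata3* and *Tfap2c*, and *Gata6*, *Gata4* and *Sox17*. They were chosen by symbol, and every probe whose RefSeq transcript carries one of these symbols was taken, which gave 14 of the 41174 probes on the array and 9 of the 18905 genes that could be named. *Gata4* had 2 probes, *Gata6* and *Sox17* had 3 each and the other genes had 1. Their mRNA was measured on 39 Agilent mouse arrays in 7 groups. The groups were unfertilized metaphase II oocytes (OC, n = 7), 2-cell embryos from in vitro fertilization (IVF, n = 6), cumulus cell-derived 2-cell embryos from somatic cell nuclear transfer (SCNT) made without trichostatin A (TSA(–), n = 8) or with it (TSA(+), n = 6), SCNT embryos injected with Spi-C mRNA at 1.0 mg/ml (n = 4) or 0.1 mg/ml (n = 4), together called Spi-C NT, and donor cumulus cells (Cumulus, n = 4). Levels are log2 processed intensities relative to the 75th percentile of the same array, so that 0 is the level of that percentile. Levels of 1 probe are comparable between groups where it was above background, and levels of different probes are not comparable. At background the level also depends on the 75th percentile of the array.

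The first cell fate decision of the mouse embryo separates the trophectoderm, the source of the placenta, from the inner cell mass, which later gives the epiblast and the primitive endoderm. TEAD4 is the DNA-binding factor of this decision and YAP1 is its coactivator, held out of the nucleus by the Hippo kinases in inner cells. Together they activate *Cdx2*, the homeobox gene of the trophectoderm, and *Gata3*, while *Eomes*, a T-box gene, and *Tfap2c*, an AP-2 gene, are also needed for trophoblast. GATA6, followed by SOX17 and GATA4, drives the primitive endoderm. All of these decisions come after the 2-cell stage that was measured here.

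All mice were (B6xDBA/2)F1, and the study's methods give females of 8 to 10 weeks as the source of oocytes and donor cells. Cumulus-oocyte complexes had been collected 15 h after hCG. Each oocyte or embryo array came from 10 pooled oocytes or embryos and each Cumulus array from 500 cells, so that fewer cells with a transcript and less transcript per cell cannot be told apart. SCNT embryos had been made by injecting a cumulus nucleus into an enucleated oocyte and activating it, and they kept the oocyte's cytoplasm and its mRNA. TSA, an inhibitor of histone deacetylases, was given at 5 nM for 8 h from activation. Spi-C mRNA, which encodes an ETS-family transcription factor, was injected into oocytes or at the pronuclear stage by the study's methods. Embryos were cultured for 24 h. The Spi-C NT embryos were not given TSA by their labels, and TSA(–) was their comparison here, although no array of embryos injected without this mRNA was analysed. The labels do not say which pools came from separate collections, so the p-values measure the spread between these arrays.

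Between 48.7% and 60.0% of probes were well above background on the OC arrays, 58.2% to 65.7% on Cumulus arrays and 66.9% to 77.6% on embryo arrays. The summed level of 12 oocyte genes was 2909 to 4867 on OC arrays and 2.49 to 4.60 on Cumulus arrays, where 6 of the 12 were above background on no array. The summed level of 14 cumulus cell genes was 303.0 to 325 on Cumulus arrays and 184 to 499 on OC arrays. In OC 94.9% to 98.8% of that sum was *Cyp19a1*, and without it the sum was 3.52 to 9.45, against 300 to 324 in Cumulus. IVF arrays had a summed level of 162 to 224 over 6 2-cell genes, against 29.2 to 43.6 on OC arrays. The same sum was 44.8 to 113 on TSA(–) arrays, with TSA(+) at 69.6 to 136 and Spi-C NT at 38.9 to 73.2. The probe for *Spic*, the gene of the injected mRNA, had a mean of 1.55 in Spi-C NT, lower than the 2.09 of TSA(–) (adjusted p = 0.00814, limma). Whether the probe lies in the injected sequence, or whether the amplification copied it, is not given in the sources used here, so that this probe does not check the labels.

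The *Cdx2* and *Eomes* promoters are printed because these were the members with the lowest levels in SCNT embryos relative to IVF embryos. RefSeq entries for 4 members were found (*Cdx2*, *Eomes*, *Gata3* and *Yap1*), and each window holds the 250 bases before the start that the RefSeq promoter table gives on GRCm38.p6. That start need not be the end of the gene's whole span: the *Gata3* window lies inside the span printed for this gene, and the *Yap1* and *Eomes* windows overlap the edge of theirs. The *Cdx2* window is chr5:147307250-147307499 on the minus strand, next to the gene at chr5:147300900-147307249. The *Eomes* window is chr9:118477939-118478188 on the plus strand, at the start of the gene at chr9:118478186-118486132. Capitals mark matches to a searched motif on either strand.
Cdx2: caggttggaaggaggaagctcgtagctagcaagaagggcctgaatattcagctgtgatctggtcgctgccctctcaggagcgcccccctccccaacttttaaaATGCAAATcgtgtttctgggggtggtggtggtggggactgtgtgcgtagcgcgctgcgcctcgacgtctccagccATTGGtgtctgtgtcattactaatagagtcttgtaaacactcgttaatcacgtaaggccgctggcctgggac
Eomes: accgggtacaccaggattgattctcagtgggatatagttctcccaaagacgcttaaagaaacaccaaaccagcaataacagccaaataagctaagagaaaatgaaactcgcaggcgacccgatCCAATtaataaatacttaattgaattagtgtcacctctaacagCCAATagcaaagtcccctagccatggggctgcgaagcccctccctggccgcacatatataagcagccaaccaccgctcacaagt
The *Cdx2* window held 1 match to the POU octamer ATGCAAAT, which 1.60% of the 32851 RefSeq windows of this length held, and 1 match to CCAAT, read as its reverse complement. The *Eomes* window held 2 matches to CCAAT, which 33.8% of all windows held. Neither window held a match to the TEAD motif GGAATG (12.6% of windows), the GATA motif AGATAA (9.99%), the CDX motif TTTATG (10.8%), TATAAA (12.4%) or GGGCGG (32.7%). The *Yap1* window held 1 GGAATG and 2 GGGCGG, and the *Gata3* window held 2 GGGCGG. GC content was 55.2% for *Cdx2* and 46.4% for *Eomes*, against a median of 52.4% over all windows, and it was 70.0% for *Gata3* and 76.4% for *Yap1*. A match of letters is a description of these windows, and binding was not measured.

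The SCNT embryos differed from IVF embryos in the same 5 of 9 lineage factors whether or not TSA was given. *Tead4* was higher in SCNT embryos and *Cdx2*, *Eomes*, *Tfap2c* and *Sox17* were lower. The 5 calls stood against 23.6% of all named genes called in TSA(–) minus IVF and 24.5% in TSA(+) minus IVF, at an adjusted p under 0.01. These comparisons share the IVF arrays. In Spi-C NT 6 members differed from IVF, the same 5 and *Gata4*, against a background of 41.9%. *Yap1*, *Gata3* and *Gata6* differed from IVF in none of the SCNT groups by this test. Some other settings called *Yap1* and *Gata3* higher in Spi-C NT than in IVF, as given below.

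Between SCNT groups the members differed less. TSA(+) minus TSA(–) called 0 of 9, against 0.102% of all named genes, and 2 members, *Cdx2* and *Gata3*, had an unadjusted p under 0.05 in limma, as did 6435 of 39520 probes. Tukey's test also called 0 of 9. Spi-C NT minus TSA(–) called 2 of 9, *Tead4* higher and *Gata4* lower, against 23.9%. The Spi-C NT arrays had slides and a scan day of their own and a scanner shared with Cumulus only, and these cannot be told apart from the injection in any comparison of Spi-C NT with another group. No member was called between the 1.0 and 0.1 mg/ml arrays, which shared slides, and no named gene was (0%). No member had an unadjusted p under 0.05 there, while 1624 of 39520 probes did.

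From oocyte to IVF embryo 7 of 9 members changed, in a comparison in which 71.4% of all named genes did. *Tead4*, *Cdx2* and *Eomes* rose and *Yap1*, *Tfap2c*, *Gata6* and *Gata4* fell. The median of all probes moved by −0.88 between these groups. Each member is also given relative to this shift, except *Tead4* and *Eomes*, which were at background on all OC arrays. Between cumulus cells and oocytes the test called 7 of 9 members against 75.7% of named genes, with *Gata6* higher in Cumulus and *Cdx2*, *Yap1*, *Tfap2c*, *Gata3* and *Sox17* lower, and the median of all probes moved by −1.15. The other call was *Tead4*, which was at background on every array of both groups, so that no direction is given for it. TSA(–) embryos differed from their donor cumulus cells in 5 of 9 against 62.9%, with *Tead4*, *Yap1*, *Tfap2c* and *Gata3* higher in the embryos and *Gata6* lower, and the median of all probes moved by 0.11. The Cumulus arrays were hybridized on 1 slide and scanned on 1 day of their own, so slide, day and scanner cannot be told apart from cell type there.

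**Figure D1:**
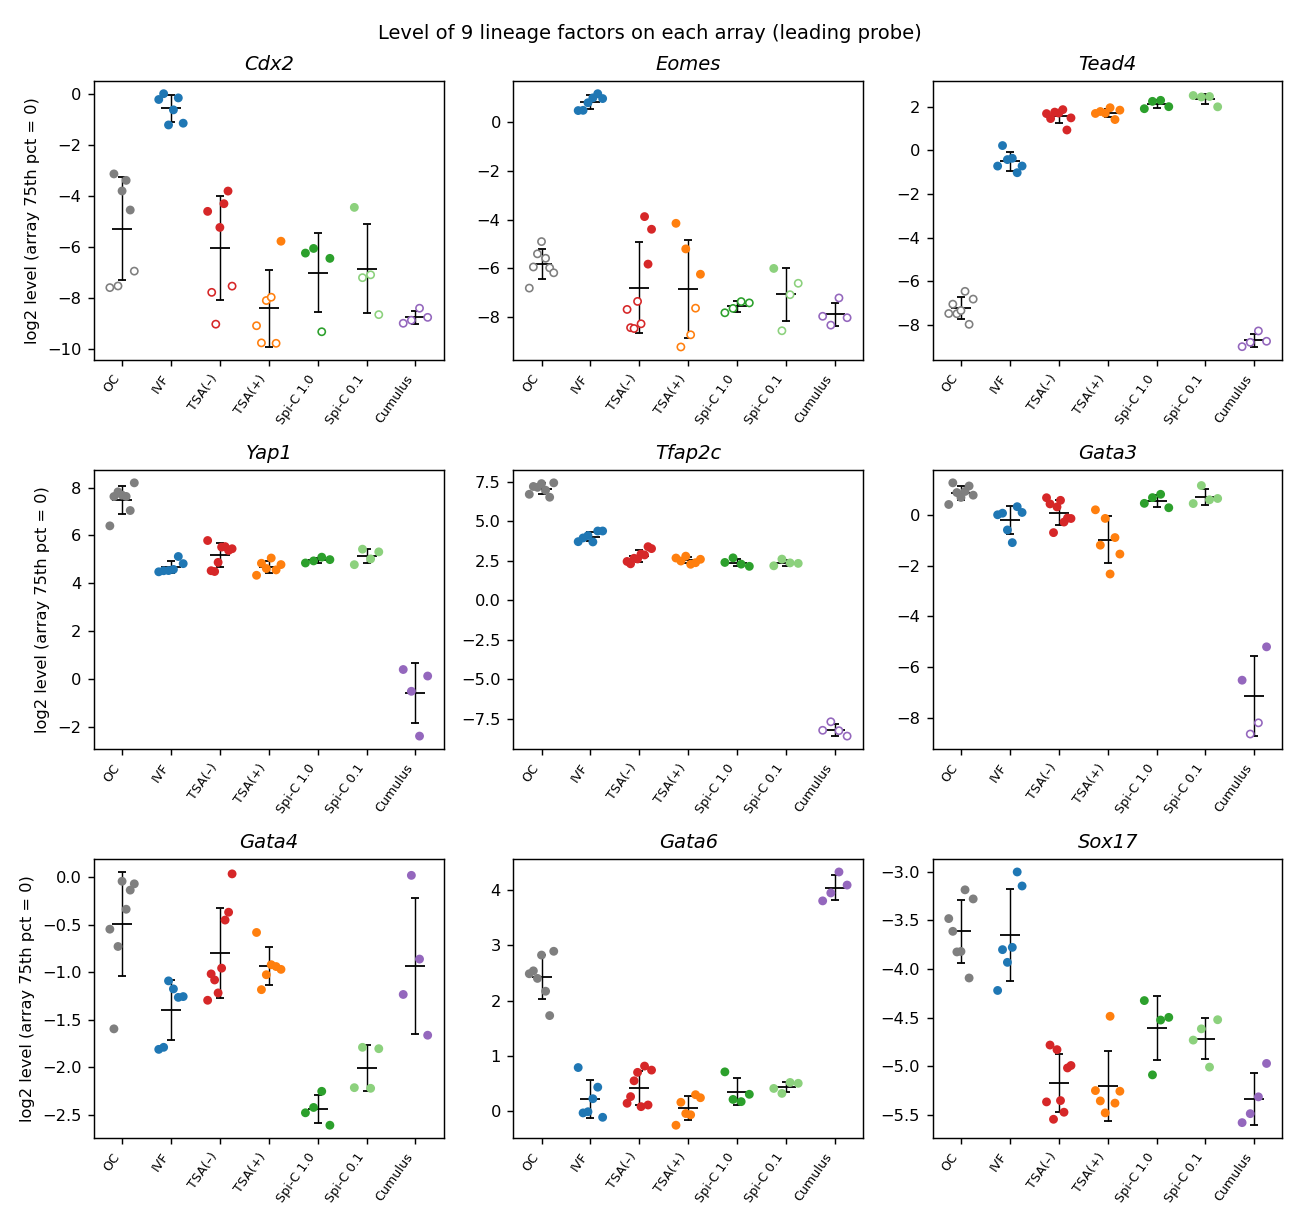
Level of each of the 9 lineage factors on each array, as log2 processed intensity with the 75th percentile of the array at 0, by group. Filled points are arrays on which the probe was well above background, open points are arrays on which it was not, and bars show the mean ± SD. *Cdx2* and *Eomes* were filled on all 6 IVF arrays and mostly open elsewhere, while *Tead4* was open in OC and Cumulus and highest in the SCNT groups.

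*Tead4*, which encodes the DNA-binding partner of YAP1 (chr6:128227143-128300813), was at background on all 7 OC arrays and was measured on every embryo array. Its 1 probe carries a RefSeq accession of *Tead4* in the files of 12 arrays (Spi-C NT and Cumulus) and another accession, which the RefSeq table used here does not hold, in the files of the other 27, and every *Tead4* value rests on the first name. Its level in OC was −7.96 at the lowest, −7.33 at the median and −6.45 at the highest. In IVF it was −1.02, −0.57 and 0.22, and all 6 arrays were above every OC array. *Tead4* in IVF was at least 58.8-fold higher than in OC, a bound set by the dimmest probes that were measured on the OC arrays (adjusted p = 6.91e-21, limma).

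In SCNT embryos *Tead4* was higher than in IVF on every array measured. TSA(–) had 0.93, 1.68 and 1.86 over 7 arrays, since 1 spot, on replicate 7, had been marked as an outlier by the scanner software and was left out. TSA(+) had 1.41, 1.74 and 1.95. The difference from IVF was 2.06 ± 0.21 (SE) for TSA(–), or 4.16-fold (adjusted p = 2.25e-08), and 2.23 ± 0.22 for TSA(+), or 4.70-fold (adjusted p = 1.25e-08, limma). On the 3 slides that held both IVF and TSA(–) arrays the difference was 1.29 to 2.17. With the deposited log2 table, which keeps the outlier spot, TSA(–) minus IVF was 1.47 with an adjusted p of 0.0236 and was no longer called. In that table the spot stood at −4.54 and the other TSA(–) arrays at −0.47 to 0.45.

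Spi-C NT embryos had the highest *Tead4* levels. The 1.0 mg/ml arrays were at 1.91, 2.00, 2.24 and 2.29 and the 0.1 mg/ml arrays at 1.99, 2.44, 2.46 and 2.51. All 8 lay above every TSA(–) array, and the concentrations overlapped. The mean of both concentrations was 2.73 ± 0.17 (SE) above IVF, or 6.65-fold (adjusted p = 2.49e-12), and 0.68 ± 0.16 above TSA(–), or 1.60-fold (adjusted p = 0.00186, limma). The second difference was called at 0.1 mg/ml alone (0.80, adjusted p = 0.00344) and not at 1.0 mg/ml alone (0.56, adjusted p = 0.0371), and the difference between the concentrations was −0.24 (95% CI −0.69 to 0.20). The call over both concentrations was lost with each array centred on its median (0.52, adjusted p = 0.0138), with the deposited log2 table (1.26, adjusted p = 0.0412) and with the replicate number as a block (0.56, adjusted p = 0.0251). Cumulus arrays had −8.98, −8.78, −8.74 and −8.26, all at background, so that TSA(–) was at least 658.5-fold higher than the donor cells. Oocytes and cumulus cells were both at background for *Tead4*, and no fold is given between them.

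*Yap1*, the coactivator (chr9:7931999-8004638), had its highest levels in oocytes. OC arrays were at 6.40, 7.63 and 8.20 (lowest, median, highest) and IVF arrays at 4.48, 4.55 and 5.12, with no overlap. IVF minus OC was −2.81 ± 0.33 (SE), or 7.01-fold lower (adjusted p = 7.92e-09, limma), and −1.93 relative to the median of all probes. With quantile normalization, this difference was −0.60 with an adjusted p of 0.0696 and was not called.

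The embryo groups overlapped for *Yap1*. TSA(–) had 4.49, 5.41 and 5.79 and TSA(+) had 4.33, 4.70 and 5.05. The 1.0 mg/ml Spi-C arrays were at 4.85, 4.93, 4.99 and 5.09 and the 0.1 mg/ml arrays at 4.78, 5.02, 5.31 and 5.42. Against IVF, *Yap1* differed by 0.52 in TSA(–) (95% CI −0.13 to 1.16), 0.02 in TSA(+) (−0.67 to 0.71) and 0.37 in Spi-C NT (−0.01 to 0.75). With quantile normalization the Spi-C NT difference was 0.75 and was called (adjusted p = 0.00181, limma). Cumulus arrays were at −2.39, −0.51, 0.12 and 0.40, above background and below every other array, and TSA(–) was 5.79 ± 0.36 (SE) or 55.2-fold above them (adjusted p = 1.03e-14, limma).

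The Hippo pathway genes around these factors, 16 genes besides *Tead4* and *Yap1*, were called in SCNT embryos in both directions. In TSA(–) minus IVF 3 were higher and 1 was lower, where 23.6% of all named genes were called, with a list median of 0.33 against −0.12 for all named genes. *Amotl2*, which encodes an angiomotin that can hold YAP1 at cell junctions, was higher by 1.15, *Mob1a*, a cofactor of the LATS kinases, by 0.70, and *Stk3*, a Hippo kinase, differed by −1.07. In TSA(+) 1 was higher (*Stk4*, 0.61) and 1 was lower (*Stk3*, −0.91), against 24.5% of all named genes. In Spi-C NT 3 were higher and 5 were lower than in IVF, against 41.9% of all named genes called and with a median of 0.14 against −0.01. *Mob1a* (1.13), *Stk4* (0.88) and *Amot* (−1.19) had the largest called differences there. From OC to IVF 4 rose and 6 fell, against 71.4%. *Wwtr1*, which encodes TAZ, the paralogue of YAP1, rose by 4.53 there, while *Sav1*, the scaffold of the Hippo kinases, changed by −5.19 and *Tead1* by −2.97.

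*Cdx2* (chr5:147300900-147307249, the promoter printed above) had its highest level in IVF embryos and was near background elsewhere. IVF arrays were at −1.20 at the lowest, −0.41 at the median and 0.02 at the highest, with a mean of −0.54 ± 0.53 (SD, n = 6). OC arrays were at −7.58, −4.54 and −3.12, and 4 of the 7 were above background. The IVF arrays did not overlap with OC and rose by 4.72 ± 0.84 (SE, adjusted p = 1.33e-05, limma), and by 5.59 relative to the median of all probes. With normexp, a model-based background correction followed by an offset of 50 on every signal, the rise was 2.09, also called, and no fold is given, since 3 OC arrays were at background.

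SCNT embryos had *Cdx2* levels below those of IVF embryos, with a wide spread. An intensity at background gives a lower level where the 75th percentile of the array is higher. The median of that percentile was 373 in OC, 1417 in TSA(–) and 1345 in TSA(+), so SCNT embryos are not ranked against oocytes here. TSA(–) had −9.01, −5.22 and −3.79, with 4 of 7 arrays above background and 1 outlier spot left out, on replicate 4. That spot was also above background. In the deposited log2 table it stood at 3.25 and the other TSA(–) arrays at −2.58 to 2.58. TSA(+) had −9.76, −8.58 and −5.76, with 1 of 6 above background. None of these arrays reached the lowest IVF array. The difference from IVF was −5.48 ± 0.84 (SE) for TSA(–) (adjusted p = 1.13e-05) and −7.85 ± 0.87 for TSA(+) (adjusted p = 8.07e-08, limma). Within the 3 slides that held both groups it was −7.56 to −3.68 for TSA(–), and it was −9.08 to −5.79 for TSA(+). Because many of these values were near background, the size depended on the background correction, and with normexp the differences were −3.58 and −4.04, both still called.

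The TSA(+) arrays had the lower mean of the 2 groups for *Cdx2*. The difference of TSA(+) from TSA(–) was −2.37 (95% CI −4.09 to −0.65, unadjusted p = 0.00876 in limma), which failed the correction over all probes (adjusted p = 0.148), and the ranges overlapped. Spi-C NT arrays at 1.0 mg/ml had −9.31, −6.43, −6.22 and −6.04, with 3 above background, and those at 0.1 mg/ml had −8.64, −7.19, −7.07 and −4.43, with 1 above background. All 8 were below IVF, and the mean was −6.37 ± 0.82 (SE) from IVF (adjusted p = 5.85e-07) and −0.89 from TSA(–) (95% CI −2.50 to 0.72, limma). With normexp the difference from TSA(–) was −0.80 and was called (adjusted p = 0.00644, limma). Cumulus cells had −8.97, −8.85, −8.74 and −8.38, all at background, and IVF embryos were at least 154-fold above them. Oocytes were called higher too, with 4 of 7 arrays above background, and no fold is given.

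*Eomes* (chr9:118478186-118486132), the T-box gene of the trophectoderm, was measured well above background on all 6 IVF arrays and on 7 of the other 33. IVF arrays were at 0.46, 0.87 and 1.15, with a mean of 0.80 ± 0.28 (SD, n = 6). OC arrays were at −6.81, −5.94 and −4.90, none above background, so that *Eomes* in IVF was at least 98.0-fold higher (adjusted p = 2.26e-09, limma). On no other array of any group did *Eomes* come within the IVF range.

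In SCNT embryos most *Eomes* values were at background. TSA(–) had −8.46, −7.52 and −3.88, with 3 of 8 arrays above background, and TSA(+) had −9.22, −6.94 and −4.16, with 3 of 6. The difference from IVF was −7.59 ± 0.70 (SE) for TSA(–) (adjusted p = 1.98e-09) and −7.66 ± 0.75 for TSA(+) (adjusted p = 6.76e-09, limma). Within slides the differences were −8.89 to −4.86 and −9.39 to −4.62, and with normexp they were −4.64 and −4.63, both called. TSA(+) minus TSA(–) was −0.07, with a 95% CI of −1.51 to 1.36.

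The Spi-C NT arrays at 1.0 mg/ml had *Eomes* at −7.82, −7.64, −7.41 and −7.36, none above background, and IVF was at least 328-fold above them. Those at 0.1 mg/ml had −8.55, −7.08, −6.61 and −6.00, with 1 above background. The mean of both was −8.11 ± 0.75 (SE) from IVF (adjusted p = 2.51e-09) and −0.52 from TSA(–) (95% CI −1.96 to 0.91, limma). With normexp the difference from TSA(–) was −0.68 and was called (adjusted p = 0.000594, limma), although most values in both groups were at background. Cumulus arrays had −8.32, −8.02, −7.96 and −7.21, none above background.

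*Cdx2* and *Eomes* were above background together on all 6 IVF arrays. They were so on 2 of the 7 TSA(–) arrays that had both spots, on 1 of 6 TSA(+) arrays, on 1 of 4 Spi-C arrays at 0.1 mg/ml and on none at 1.0 mg/ml, in OC or in Cumulus. *Cdx2* alone was above background on 4 OC arrays, 2 TSA(–) arrays and 3 Spi-C arrays at 1.0 mg/ml, and *Eomes* alone on 1 TSA(–) and 2 TSA(+) arrays. Across the 38 arrays with both spots, which share their groups, the levels had a Pearson r of 0.82 and a Spearman rho of 0.66.

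*Gata3* (chr2:9857078-9887953), another target of TEAD4 in trophectoderm, was measured on every oocyte and embryo array and did not differ between IVF and SCNT embryos by this test. OC arrays were at 0.41, 0.88 and 1.26 and IVF arrays at −1.10, 0.03 and 0.32. These ranges did not overlap, but the difference of −1.07 ± 0.42 (SE) had an adjusted p of 0.0225 and was −0.19 relative to the median of all probes. It was called with normexp, with scan day or slide as a fixed block, with the compared groups fitted alone and with median centring. With slide as a random block it was not called. TSA(–) had −0.70, 0.09 and 0.67 and TSA(+) had −2.33, −1.05 and 0.20. TSA(–) differed from IVF by 0.29 (95% CI −0.53 to 1.12) and TSA(+) by −0.78 (−1.67 to 0.10). TSA(+) minus TSA(–) was −1.08 (95% CI −1.91 to −0.25, unadjusted p = 0.0126, adjusted p = 0.171, limma), with overlapping ranges.

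The Spi-C NT arrays were at the upper end of the *Gata3* levels in embryos. They were at 0.28, 0.45, 0.68 and 0.81 for 1.0 mg/ml and at 0.44, 0.59, 0.64 and 1.15 for 0.1 mg/ml. The mean differed from IVF by 0.83 ± 0.31 (SE, adjusted p = 0.0283) and from TSA(–) by 0.54 (adjusted p = 0.158, limma), neither called. The difference from IVF was called with normexp (0.83, adjusted p = 0.00879) and with the compared groups fitted alone (0.83, adjusted p = 0.00682, limma). Cumulus arrays had −8.65, −8.20, −6.52 and −5.21, with 2 above background, below every other array. *Gata3* was 7.24 ± 0.46 (SE) higher in TSA(–) than in these cells (adjusted p = 1.76e-14, limma).

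*Tfap2c* (chr2:172545678-172558622), the AP-2 gene that is also present in the oocyte, fell from oocyte to embryo and was lower again in SCNT embryos. OC arrays were at 6.51, 7.14 and 7.42, IVF arrays at 3.68, 4.01 and 4.38, and no array overlapped. *Tfap2c* in IVF was 8.08-fold below OC, a difference of −3.01 ± 0.19 (SE, adjusted p = 1.91e-14, limma), or −2.14 relative to the median of all probes. TSA(–) had 2.30, 2.76 and 3.38 and TSA(+) had 2.27, 2.53 and 2.78, all under the lowest IVF array. The difference from IVF was −1.22 ± 0.19 (SE), or 2.33-fold, for TSA(–) (adjusted p = 9.51e-06) and −1.50 ± 0.20, or 2.83-fold, for TSA(+) (adjusted p = 1.25e-06, limma), and within slides −1.40 to −0.82 and −1.81 to −1.03.

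*Tfap2c* in Spi-C NT lay within the range of the other SCNT groups or just under it. The values were 2.14, 2.28, 2.39 and 2.68 at 1.0 mg/ml and 2.17, 2.33, 2.36 and 2.60 at 0.1 mg/ml. The mean was −1.66 ± 0.16 (SE) from IVF, or 3.16-fold lower (adjusted p = 5.15e-09), and −0.44 from TSA(–) (adjusted p = 0.0273, not called, limma). Centring on array medians gave −0.61 for the second difference, which was then called (adjusted p = 0.00644). Cumulus arrays were at −8.60, −8.26, −8.23 and −7.69, none above background, which put IVF at least 3580-fold, OC at least 28928-fold and TSA(–) at least 1534-fold above them.

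**Figure D2:**
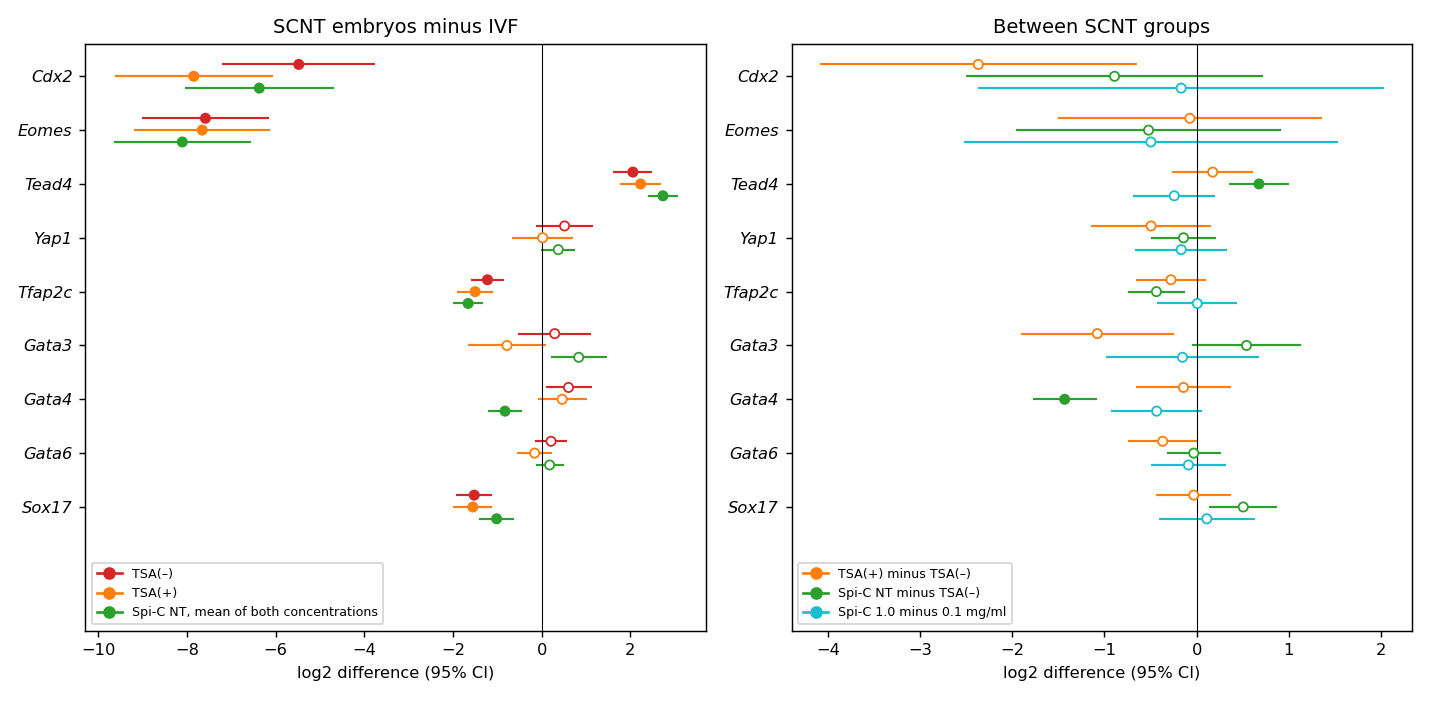
Log2 difference of each lineage factor between groups, with its 95% CI. The left panel shows each SCNT group minus IVF and the right panel shows differences between SCNT groups. Filled points had an adjusted p under 0.01 in limma. *Cdx2* and *Eomes* lay between −8.11 and −5.48 on the left, *Tead4* between 2.06 and 2.73, and 2 points were filled on the right, *Tead4* and *Gata4* in Spi-C NT minus TSA(–).

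The other trophoblast genes, 17 genes besides the members, were called in SCNT embryos in 1 direction. In TSA(–) 9 of 17 were lower than in IVF and 0 were higher, with a list median of −0.73 against −0.12 for all named genes. *Tfap2a*, another AP-2 gene, differed by −3.54, *Hand1*, a factor of trophoblast giant cells, by −3.24 and *Bmp4*, a signal of extraembryonic tissue, by −2.86. In TSA(+) 6 were lower and 0 were higher (median −0.77 against −0.21), led by *Tfap2a* at −3.57, *Bmp4* at −2.87 and *Klf5*, a Krüppel-like factor of trophectoderm, at −1.29. In Spi-C NT 11 were lower and 0 were higher (median −1.03 against −0.01), led by *Gata2* at −5.10, *Bmp4* at −3.45 and *Hand1* at −2.34. The background of lower calls was 13.6%, 14.3% and 22.3% of named genes in these comparisons. This list, like the others, was chosen with earlier results of these data known, so the counts describe the listed genes only.

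Between SCNT groups and across the oocyte to embryo step the trophoblast genes moved in both directions. In TSA(+) minus TSA(–) 0 of 17 were called. In Spi-C NT minus TSA(–) 2 were higher, *Tfap2a* (1.28) and *Klf5* (1.13), and 3 were lower, with *Gata2* at −2.28, against 23.9% of all named genes. From OC to IVF 9 rose and 6 fell, against 71.4% of all named genes called, with a median of 2.09 against −0.74. *Klf5* rose by 7.54, *Krt18*, a keratin of trophectoderm, by 6.71 and *Hand1* by 6.57, from OC levels that were above background on 2, 1 and 1 of 7 arrays.

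*Gata6* (chr18:11052510-11085636), the first of the primitive endoderm factors, had its highest levels in cumulus cells, where the leading probe (the probe above background on most arrays) was at 3.80, 3.94, 4.09 and 4.32. The OC arrays had 1.73, 2.49 and 2.89 and IVF arrays at −0.11, 0.11 and 0.79. These 3 groups did not overlap. Cumulus was 3.04-fold above OC, a difference of 1.60 ± 0.21 (SE, adjusted p = 6.76e-08), and IVF was 4.64-fold below OC, a difference of −2.21 ± 0.19 (adjusted p = 1.01e-11, limma), or −1.34 relative to the median of all probes. Without *Cyp19a1*, the brightest of the cumulus cell genes in OC, the sum of these genes on OC arrays lay below that on all embryo arrays. With *Cyp19a1* it overlapped with the sum on Cumulus arrays. Whether this bears on *Gata6* in OC was not tested. On the mean of all 3 probes Cumulus minus OC was 0.54 and was not called (adjusted p = 0.119). The second probe gave 1.46 (adjusted p = 0.0119, limma, not called). The third probe gave −1.46 and was above background on 1 of 7 OC arrays and 0 of 4 Cumulus arrays.

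The embryo groups overlapped for *Gata6*. TSA(–) had 0.09, 0.41 and 0.82 and TSA(+) had −0.25, 0.06 and 0.30. Spi-C NT arrays were at 0.18, 0.22, 0.31 and 0.71 for 1.0 mg/ml and at 0.33, 0.41, 0.51 and 0.52 for 0.1 mg/ml. The difference from IVF was 0.21 for TSA(–) (95% CI −0.16 to 0.58), −0.16 for TSA(+) (−0.56 to 0.24) and 0.18 for Spi-C NT (−0.14 to 0.49), and TSA(–) was −3.61 ± 0.21 (SE), or 12.2-fold, below its donor cells (adjusted p = 1.44e-15, limma). A second probe gave −3.47 for the last comparison (adjusted p = 5.00e-07) and was called in no comparison between embryo groups, and the third probe was above background on 3 of 39 arrays.

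*Gata4* (chr14:63198914-63271712), which acts with GATA6 in the primitive endoderm, had 2 probes that were called in opposite directions in Spi-C NT minus TSA(–). Its leading probe was at −1.59, −0.33 and −0.04 in OC, −1.81, −1.26 and −1.09 in IVF, −1.29, −0.99 and 0.04 in TSA(–) and −1.18, −0.95 and −0.58 in TSA(+). It was at −2.61, −2.48, −2.42 and −2.25 in Spi-C NT at 1.0 mg/ml and at −2.22, −2.21, −1.80 and −1.79 at 0.1 mg/ml. The 8 Spi-C NT arrays were below every TSA(–) array and overlapped with IVF at 0.1 mg/ml alone. Spi-C NT minus TSA(–) was −1.43 ± 0.17 (SE), or 2.70-fold lower (adjusted p = 3.21e-07, limma).

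The second *Gata4* probe, also above background on every embryo array, gave 0.79 ± 0.16 (SE) for Spi-C NT minus TSA(–), called in the opposite direction (adjusted p = 0.000487, limma). On the mean of both probes the difference was −0.32 with an adjusted p of 0.0484. Against IVF the leading probe gave −0.83 ± 0.18 for Spi-C NT (adjusted p = 0.000531) and the second probe 0.46 (adjusted p = 0.0351), and the call on the leading probe was made at 1.0 mg/ml alone (−1.04, adjusted p = 0.000390) and not at 0.1 mg/ml (−0.61, adjusted p = 0.0277). No direction for *Gata4* in Spi-C NT held over both probes.

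In the other comparisons the *Gata4* probes also differed in their calls. On the leading probe IVF minus OC was −0.91 ± 0.26 (SE, adjusted p = 0.00282, limma) with overlapping ranges, and −0.03 relative to the median of all probes. That call was lost with Tukey's test, with the slide as a fixed block and on the mean of both probes, and the second probe gave −0.09. TSA(–) minus IVF was 0.60 (95% CI 0.09 to 1.12, adjusted p = 0.0767) and TSA(+) minus IVF was 0.46 (−0.09 to 1.02), while the second probe gave −0.34 and −0.70, the last called (adjusted p = 0.00933). Cumulus arrays were at −1.66, −1.23, −0.86 and 0.02 and overlapped with every group but Spi-C NT. Cumulus minus OC was −0.44 on the leading probe (adjusted p = 0.171) and −1.42 on the second (adjusted p = 1.42e-06), and it was called on their mean (−0.93, adjusted p = 0.000363). TSA(–) minus Cumulus was 0.14 on the leading probe and 0.99 on the second, called and without overlap (adjusted p = 0.000209, limma).

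*Sox17* (chr1:4490928-4497426), an endoderm factor of the SRY-box family, was lower in SCNT embryos than in IVF embryos on its leading probe. Oocytes had −4.09, −3.61 and −3.19 and IVF arrays at −4.22, −3.79 and −3.00, and these overlapped. TSA(–) had −5.55, −5.19 and −4.78 and TSA(+) had −5.48, −5.31 and −4.49, all below the IVF range. SCNT minus IVF was −1.52 ± 0.20 (SE), or 2.87-fold lower, for TSA(–) (adjusted p = 8.98e-07) and −1.55 ± 0.21, or 2.94-fold, for TSA(+) (adjusted p = 1.92e-06, limma), and −1.69 to −0.56 and −2.22 to −1.03 within slides. With normexp the differences were −0.82 and −0.84, both called.

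The means of Spi-C NT lay between those of IVF and the other SCNT groups for *Sox17*. The arrays were at −5.09, −4.53, −4.50 and −4.32 for 1.0 mg/ml and at −5.01, −4.73, −4.62 and −4.52 for 0.1 mg/ml. All were below IVF, with a difference of −1.02 ± 0.19 (SE), or 2.02-fold (adjusted p = 9.86e-05), and they overlapped with TSA(–), from which the mean differed by 0.51 (adjusted p = 0.0322, not called, limma). Cumulus arrays had −5.58, −5.49, −5.31 and −4.97, and Cumulus minus OC was −1.72 ± 0.23 (adjusted p = 1.02e-07), or −0.58 relative to the median of all probes. The other probes gave −5.24 and −4.95 for this comparison, both called.

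The other *Sox17* probes shared the direction in SCNT minus IVF for TSA(–) and TSA(+) but not the size. The probe A_52_P279368 gave −3.13 ± 0.74 (SE) for TSA(–), −4.13 ± 0.79 for TSA(+) and −3.66 ± 0.58 for Spi-C NT, all called (adjusted p = 0.00179, 0.000194 and 1.08e-05, limma). The probe A_52_P365096, above background on 13 of 39 arrays, gave −0.62, −1.04 and 0.08, none called. From OC to IVF the leading probe gave −0.03, or 0.84 relative to the median of all probes, and was not called. It was called lower with quantile normalization (−0.76), median centring (−0.71) and normexp (−0.84). The mean of all probes was also called (−1.17, adjusted p = 0.000749), and A_52_P365096 gave −3.08 ± 0.30 and was called (adjusted p = 3.09e-10).

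**Figure D3:**
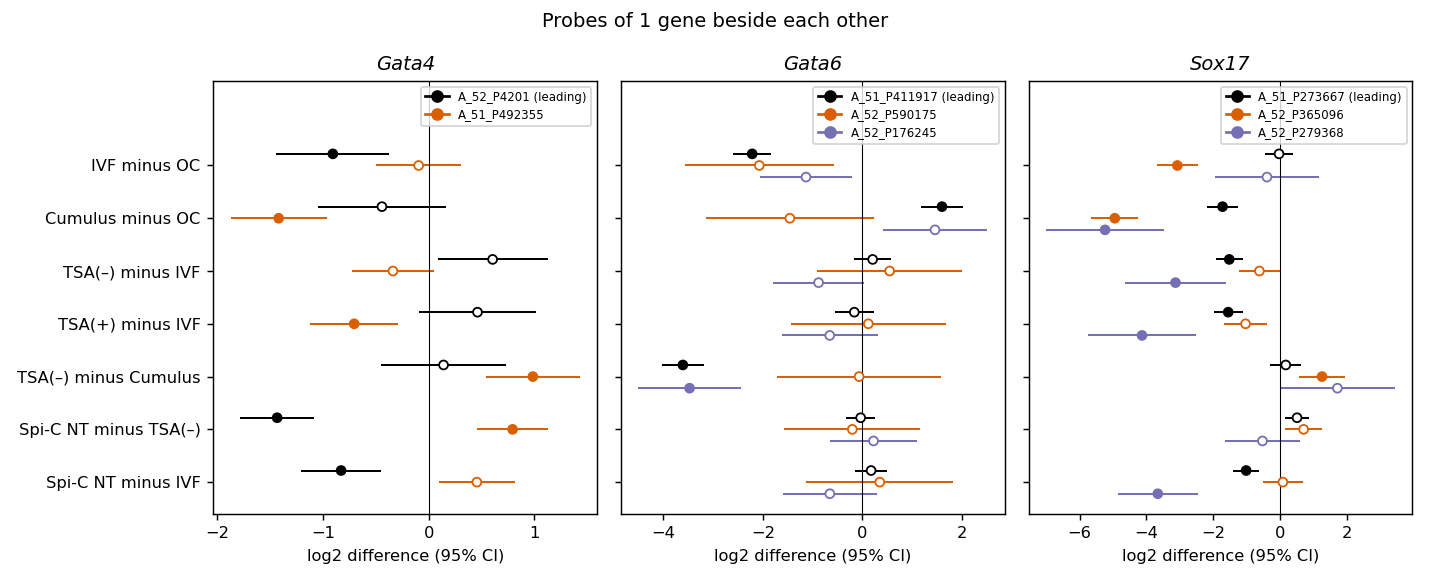
Log2 differences from each probe of *Gata4*, *Gata6* and *Sox17* in 7 comparisons, with 95% CI and filled points for an adjusted p under 0.01 in limma. The *Gata4* probes were both filled in Spi-C NT minus TSA(–), at −1.43 and 0.79. The *Sox17* probes ranged from −3.13 to −0.62 in TSA(–) minus IVF.

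The other primitive endoderm genes, of which 17 of 18 had a probe, were also compared with IVF embryos. Of all named genes 23.6% were called in TSA(–) minus IVF, and 13.6% were called lower. In TSA(–) 3 of 17 were lower and 0 were higher, with a median of −0.41 against −0.12. These were *Foxa2* at −7.15, with 1 of 8 TSA(–) arrays above background, *Foxa1* at −6.05, both forkhead factors of endoderm, and *Amn* at −1.56, which encodes the visceral endoderm protein amnionless. In TSA(+) 2 were higher and 3 were lower, against 24.5% of all named genes called and 14.3% called lower (median −0.61 against −0.21). *Foxa1* differed by −5.95 there and *Sparc*, a matrix protein of parietal endoderm, by 1.85. The means of *Foxa1* were −6.85 in TSA(–) and −6.75 in TSA(+), near background, which limits the size of its differences. *Foxa2* was also called lower in TSA(+) and in Spi-C NT and was above background on no array of either, so that IVF was at least 86.7-fold above TSA(+) and at least 77.2-fold above Spi-C NT (adjusted p = 6.34e-17 and 1.65e-19, limma).

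In Spi-C NT 7 primitive endoderm genes were lower than in IVF and 1 was higher (median −0.80 against −0.01). Of all named genes 41.9% were called there and 22.3% were called lower. Among the lower endoderm genes were *Foxa1* at −6.32 and *Afp*, a yolk sac gene, at −4.13. Their Spi-C NT means were −7.12 and −5.58. Relative to TSA(–), *Lamb1* (−1.48) and *Dab2* (−0.42) were lower and *Hnf4a* (1.32) was higher. From OC to IVF 8 rose and 6 fell, against 71.4% of all named genes called, with a median of 0.05 against −0.74. *Amn* rose by 7.54, from an OC mean of −6.23, near background. *Foxa2* was at least 28.5-fold higher, since no OC array had it above background, and *Lamb1*, a laminin chain, changed by −6.33. In Cumulus *Sparc*, *Lama1* and *Col4a2*, genes of the extracellular matrix, were 12.04, 8.14 and 7.68 above OC on the log2 scale. Their OC means were −5.46, −5.32 and −3.57, and values near background limit the size of such differences.

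**Figure D4:**
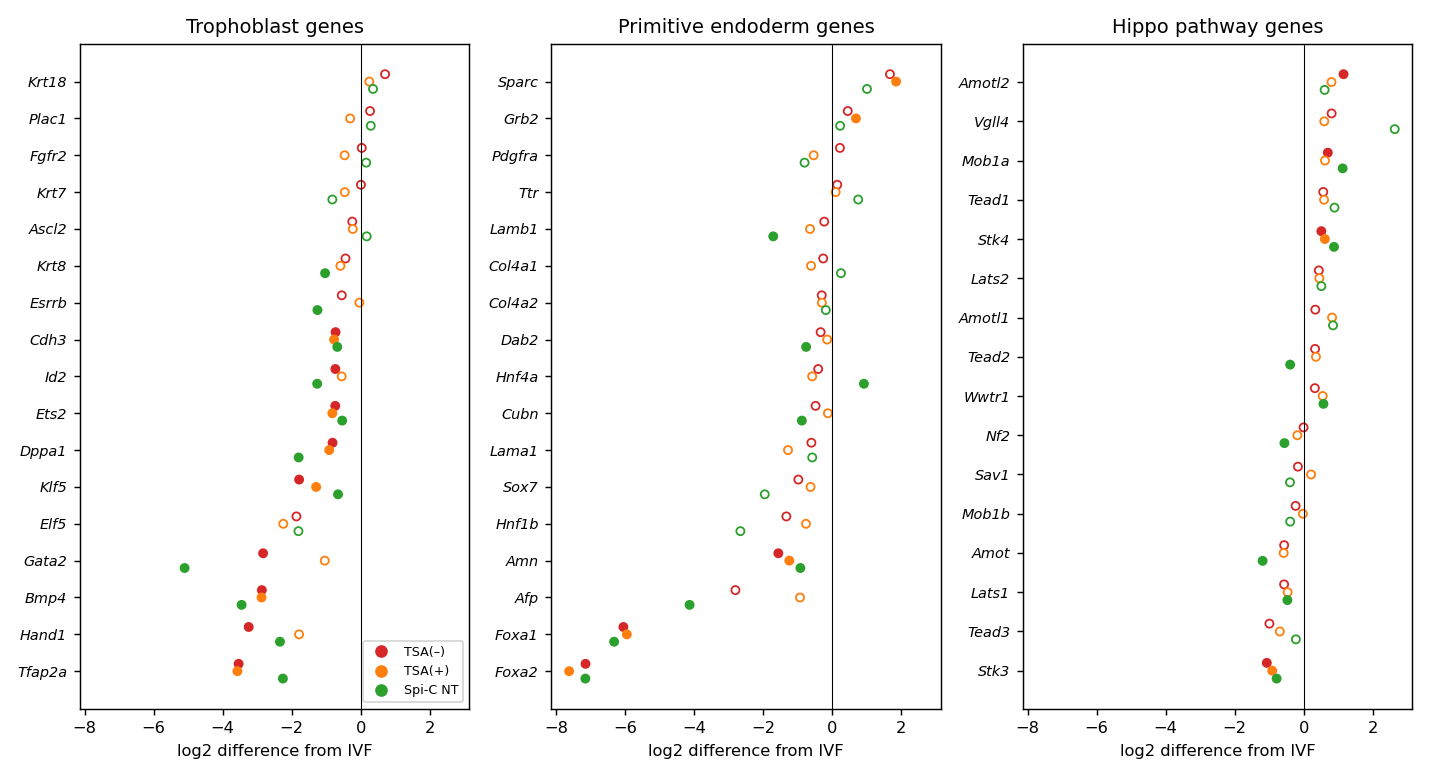
Log2 difference from IVF of the trophoblast, primitive endoderm and Hippo pathway genes besides the members, for TSA(–), TSA(+) and Spi-C NT. Filled points had an adjusted p under 0.01 in limma. All filled trophoblast genes lay below 0, while filled Hippo genes lay on both sides, from −1.19 to 1.15.

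The order of the groups by mean level fell into few patterns over the members. *Cdx2* and *Eomes* had IVF first and apart. Every other group had arrays at background for both genes, so no order is given among these groups. *Tead4* had the 4 SCNT groups first, each overlapping with the next, then IVF, apart from these, and last OC and Cumulus, which were both at background and have no order. *Yap1*, *Tfap2c* and *Gata3* had OC first and Cumulus last and apart. Among these *Tfap2c* also had OC, IVF and TSA(–) apart from each other, and the other embryo groups overlapped. *Gata6* had Cumulus and then OC apart from the embryos, *Sox17* had OC and IVF overlapping and apart from Spi-C NT, and *Gata4* had each group overlapping with the next down to the Spi-C arrays at 1.0 mg/ml, which stood apart.

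For each member the genes with the most similar pattern over the arrays were taken by Pearson r over 38 or 39 arrays of 7 groups, which share the groups and the scaling. For *Cdx2* these were *Zfy1* (0.853), *Rad51d* (0.839) and *Olfr910* (0.833). *Zfy1*, a gene of the Y chromosome, had a mean of −1.16 in IVF and −7.83 to −7.45 in the SCNT groups. The donor cells came from females, so embryo sex cannot be told apart from nuclear transfer where SCNT and IVF embryos are compared. For *Eomes* the genes were *1700095A21Rik* (0.947), *Olig1* (0.945) and *Olfr1414* (0.933). *Olig1*, a helix-loop-helix gene of the nervous system, had a mean of −0.16 in IVF and −8.79 to −7.09 in the other groups. For *Tead4* they were *Cst6*, *Itgae* and *Slc25a41* (0.985 to 0.986), for *Yap1* *Cgn*, *Cnot6l* and *Socs4* (0.982 to 0.984) and for *Tfap2c* *E330021D16Rik*, *Pramel34* and *Mphosph6* (0.995 to 0.997). For *Gata3* they were *Cdca7l*, *Sfmbt1* and *Klhdc1* (0.965 to 0.968), and for *Gata6* *Cyp1b1*, *Erlin2* and *Anxa5* (0.965 to 0.967). *Gata4* (0.828 to 0.832) and *Sox17* (0.860 to 0.871) had the lowest values besides *Cdx2*, with *Arhgap19*, *Mllt1* and *Zbtb21* for the first and *Sult1c1*, *Klk1b3* and *Cetn1* for the second.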

How the data were processed

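RNA from pooled oocytes, 2-cell embryos or cumulus cells had been amplified in a linear way over 2 rounds, labelled with Cy3 and hybridized to Agilent Whole Mouse Genome arrays. The scanner files deposited by the authors hold, for each spot, a processed intensity that Feature Extraction corrected for background (version 9.5.3.1 in the submitters' processing notes). Per the file headers it was 9.5.3.1 with scanner G2505B for 27 arrays (OC, IVF, TSA(–) and TSA(+)) and 10.5.1.1 with G2505C for 12 (Spi-C NT and Cumulus). A deposited table of the authors' log2 values was used as an alternative. Its values were within 0.1 of the log2 processed intensity after subtracting the 75th percentile of its array and the median of its probe in 99.64% of cases, with column medians of −0.30 to 1.08.

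Here, log2 of the deposited processed intensity minus the 75th percentile of each array was used, outlier spots were left out (1820 values) and spots of 1 probe were averaged. Probes were named through their RefSeq accession (27861 of 41174). Tests covered the 39520 probes that reached an intensity of 10 on at least 1 array of an IVF or SCNT embryo, all 14 member probes among them. Groups were compared with limma 3.58.1 in R 4.3.3 at a Benjamini-Hochberg adjusted p under 0.01 over all tested probes, in a fit of 31 arrays (OC, IVF, TSA(–), TSA(+), Cumulus) or of 28 (IVF, TSA(–), TSA(+), both Spi-C concentrations). The paper's own test was a one-way test with Tukey's HSD, used here as an alternative. A probe that was above background on no array of a group has only a bound there: the other group's mean was set against the higher of its own signal and the lowest signal of any probe well above background on each array. The leading probe of a gene was the one above background on most arrays. The named genes were all members, the 3 genes most like each member, and for each list the 3 called genes with the largest differences. The members and lists were chosen with earlier results of these data known. Other scalings, background corrections, filters, blocks, fits and leaving out each array were tried, and the code was tested on simulated data. The number of arrays limits the precision.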

Additional observations from a re-analysis of the deposited data

Results flagged for a closer look

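In 3 of the 63 sets of arrays, formed by 9 genes and 7 groups, 1 array stood apart from the rest of its group by Dixon's test. Chance alone gives about 1 in 20, or 3.15 of 63. *Cdx2* on replicate 3 of the Spi-C arrays at 1.0 mg/ml was at −9.31, not above background, with the others at −6.43 to −6.04. *Tead4* on replicate 4 of the Spi-C arrays at 0.1 mg/ml was at 1.99, with the others at 2.44 to 2.51. *Sox17* on replicate 4 of TSA(+) was at −4.49, with the others at −5.48 to −5.25. Leaving out any of these arrays changed no call of a member in the comparisons that used it.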

How the results depend on the processing

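The count of members called stayed within 1.5 times its value in 8 of 9 comparisons under each alternative. The exception was Spi-C NT minus TSA(–), with 2 members, where normexp and an adjusted p under 0.05 each gave 4, and the authors' processed values, the replicate block and the mean of all probes of a gene each gave 1. The members gained with normexp were *Cdx2* and *Eomes*, both lower in Spi-C NT. The cause of these changes in count was not tested. Leaving out 1 array at a time gave 2 to 3 members there, with 3 without TSA(–) replicate 2, and 5 to 6 in TSA(–) minus Cumulus, with 6 without TSA(–) replicate 2, 3 or 8. The other 7 comparisons kept their counts, at 7 in IVF minus OC and in Cumulus minus OC, 5 in TSA(–) and in TSA(+) minus IVF, 6 in Spi-C NT minus IVF and 0 in the others. *Sox17* in TSA(–) minus Cumulus, not called at 0.17, was called at −0.73 with quantile normalization (adjusted p = 0.00659, limma) and at −0.70 with median centring (adjusted p = 0.00947), but at 1.04 on the mean of all its probes (adjusted p = 0.00521). *Cdx2* in Cumulus minus OC was lost with Tukey's test, and *Tead4*, at background in both groups, was lost there with quantile normalization and the authors' values. Arrays with the same replicate number had correlations of −0.09 to 0.08, which cannot show whether the number marks pairs. The replicate block changed the call of *Tead4* in Spi-C NT minus TSA(–) alone. The scan day as a fixed block could not be fitted for the comparisons with Cumulus or Spi-C NT. Signals near background limit the size of the *Cdx2* and *Eomes* differences.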

Other observations

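The relatives and cofactors of the members, a list of 11 genes (other CDX, T-box, AP-2, GATA and SOX genes and the GATA cofactors *Zfpm1* and *Zfpm2*), held 1 gene that was higher and 3 that were lower in TSA(–) than in IVF embryos, where 23.6% of all named genes were called in either direction. The counts were 1 higher and 2 lower in TSA(+) minus IVF (24.5% of all named genes) and 3 and 3 in Spi-C NT minus IVF (41.9%). *Cdx4*, a caudal-type homeobox gene, had a mean log2 level of −2.78 ± 1.25 (SD, n = 6) in IVF, with all 6 arrays above background, and IVF was at least 12.1-fold above OC, where none of the 7 arrays was. It was above background on 2 of 8 TSA(–) arrays, 3 of 6 TSA(+) arrays and 3 of 8 Spi-C NT arrays, and the log2 differences from IVF were −4.55, −3.20 and −4.85 (adjusted p = 0.000125, 0.00773 and 0.000185, limma). *Tbr1*, the T-box gene nearest to *Eomes*, was above background on 3 of 6 IVF arrays and on no SCNT array, and it was called lower in all 3 SCNT groups, for which no fold is given. *Sox18*, a relative of *Sox17* that is known for vessel development, was at −0.52 ± 0.52 (SD, n = 6) in IVF and was lower by a log2 difference of −1.76 in TSA(–) and −2.29 in Spi-C NT (adjusted p = 0.00136 and 8.52e-06, limma), while its difference of −1.44 in TSA(+) did not pass the test (adjusted p = 0.0123, limma). *Gata1*, the erythroid GATA factor, was higher in TSA(+) than in IVF by a log2 difference of 1.04 (adjusted p = 0.00123, limma). *Tbx21*, a T-box gene of T cells, was at 2.75 ± 0.34 (SD, n = 8) in TSA(–) and was lower in Spi-C NT, with a log2 difference of −1.20 (adjusted p = 8.60e-05, limma).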
